A study of Mus musculus with 4 samples.

Results

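The genes described are the chains of the mouse MHC class II molecules, their chaperones and Ciita, the factor that switches them on. They were taken by symbol, namely H2-Aa, H2-Ab1, H2-Eb1, Cd74, Ciita, H2-DMa, H2-DMb1, H2-Oa and H2-Ob. All 9 were found among the 24340 genes of the expression table. Of these 9 genes, 5 averaged at least 1 FPKM (fragments per kilobase of transcript per 1000000 fragments) over the 4 libraries, and 4 did not and are stated as not measured. Of all listed genes, 10471 passed the same limit.

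RNA came from lineage-negative, Kit-positive bone marrow cells of C57BL/6 mice, a gate for immature blood cells, and every group carried the activated kinase JAK2V617F. The groups were Tet2-/- (knockout) cells with ruxolitinib, a drug that blocks JAK1 and JAK2, Tet2-/- control cells, Tet2+/+ (wild type) cells with ruxolitinib and Tet2+/+ control cells. Each group was 1 library, so no difference below has a replicate check and no p-value was computed. Tet2 was inactivated conditionally in blood-forming cells, per the series text, and the drug was given to cells after they had been taken from the marrow. The labels give no dose or time of ruxolitinib, no number, sex or age of animals and no driver of the deletion.

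Class II molecules are pairs of an alpha and a beta chain that carry peptides from the endosome to the cell surface for CD4 T cells. Cd74, the invariant chain, occupies their groove until it is cut down, the DM pair (H2-DMa and H2-DMb1) frees the groove and edits its peptide, and the DO pair (H2-Oa and H2-Ob) inhibits DM. Ciita binds no DNA itself and docks on factors already assembled at the promoters. High expression is typical of B cells, dendritic cells and activated macrophages. C57BL/6 mice have a disabled gene for the E alpha chain, so their H2-Eb1 product has no partner at the surface.

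Facts of the libraries that bear on these genes are as follows. Depth, estimated from how the smallest values are spaced, was 52000000 fragments in the knockout ruxolitinib, 55000000 in the knockout control, 47600000 in the wild-type ruxolitinib and 44200000 in the wild-type control library. Among the marker lists of blood cell types, that of mast cells had the highest sum. Of its 12 markers 11 were measured, with a summed level between 19371 and 31163 FPKM. All genes together summed to between 466334 and 526299 FPKM a library. Cpa3, also a mast cell marker, was listed at 0 in all 4 libraries. Genotype and sex of the animals cannot be told apart, since Xist was at 62.2 and 53.2 FPKM in the knockout ruxolitinib and control libraries, against 0.0309 and 0.0241 FPKM in the matching wild-type libraries. Tet2 was at 4.39 and 3.62 FPKM in the knockout ruxolitinib and control libraries, against 5.05 and 4.69 FPKM in the matching wild-type libraries. Since the deleted part of Tet2 is not stated, a value over the whole gene does not check the genotype.

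Class II promoters share an X box, bound by the RFX complex, and downstream of it a Y box, bound by NF-Y, on which Ciita docks. The windows from 250 bases before to 50 bases after the annotated start were taken from RefSeq on GRCm38.p6, the mm10 assembly, and 6 of the 9 genes had an entry (H2-Ab1, Cd74 and Ciita had none). They are shown because the same X and Y cores stand in promoters of genes that were expressed and of genes that were not measured. Capitals mark the X core GNAAC and the Y core GATTGG, and each line reads from 5′ to 3′ along the gene. The windows are H2-DMb1 (chr17:34152941-34153240, plus strand), H2-Oa (chr17:34092129-34092428, plus), H2-Ob (chr17:34238655-34238954, plus), H2-Aa (chr17:34287774-34288073, minus) and H2-Eb1 (chr17:34305617-34305916, plus).
H2-DMb1: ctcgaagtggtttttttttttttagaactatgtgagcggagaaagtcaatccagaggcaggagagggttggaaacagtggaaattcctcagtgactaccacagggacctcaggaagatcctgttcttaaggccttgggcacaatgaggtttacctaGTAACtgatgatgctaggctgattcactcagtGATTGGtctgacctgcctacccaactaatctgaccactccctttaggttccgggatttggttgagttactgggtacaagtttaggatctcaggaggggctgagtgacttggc
H2-Oa: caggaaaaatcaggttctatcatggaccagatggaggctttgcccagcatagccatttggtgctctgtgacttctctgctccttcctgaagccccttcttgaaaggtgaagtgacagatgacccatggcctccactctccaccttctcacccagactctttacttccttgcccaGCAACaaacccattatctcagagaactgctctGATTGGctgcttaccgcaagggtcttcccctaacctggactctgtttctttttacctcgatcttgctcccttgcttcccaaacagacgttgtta
H2-Ob: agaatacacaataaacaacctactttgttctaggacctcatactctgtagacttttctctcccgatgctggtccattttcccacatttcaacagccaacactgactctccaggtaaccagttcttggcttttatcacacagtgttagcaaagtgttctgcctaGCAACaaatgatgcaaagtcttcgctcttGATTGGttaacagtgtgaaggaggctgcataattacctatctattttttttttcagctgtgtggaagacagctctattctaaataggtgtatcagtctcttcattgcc
H2-Aa: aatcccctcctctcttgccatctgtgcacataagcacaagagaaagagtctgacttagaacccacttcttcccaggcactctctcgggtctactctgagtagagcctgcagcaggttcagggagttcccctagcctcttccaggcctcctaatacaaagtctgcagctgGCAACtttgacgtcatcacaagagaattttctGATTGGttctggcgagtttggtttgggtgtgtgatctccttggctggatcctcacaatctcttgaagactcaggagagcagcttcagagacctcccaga
H2-Eb1: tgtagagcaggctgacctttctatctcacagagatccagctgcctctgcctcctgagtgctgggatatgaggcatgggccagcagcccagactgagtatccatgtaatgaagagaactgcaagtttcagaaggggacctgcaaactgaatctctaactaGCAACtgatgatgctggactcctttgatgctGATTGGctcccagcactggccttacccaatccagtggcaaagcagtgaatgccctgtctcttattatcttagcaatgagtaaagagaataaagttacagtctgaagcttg

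The X core began 94 bases before the start in H2-DMb1, 76 in H2-Oa, 87 in H2-Ob, 81 in H2-Aa and 91 in H2-Eb1. Between the X and the Y core lay 27 bases in H2-DMb1, H2-Oa and H2-Aa, 26 in H2-Eb1 and 24 in H2-Ob. H2-DMb1 alone among these 5 windows had GTAAC as its X core, where the other windows had GCAAC. Searched on both strands, GNAAC was in 84.8% and GATTGG in 16.1% of the 32851 promoter windows of the table. GNAAC followed by GATTGG after 15 to 35 bases, a spacing chosen after these windows had been read, was in 1.21%. Neither of the windows listed for H2-DMa held this pair. A match describes letters and not binding, and it did not sort the genes by level, since H2-DMb1 and H2-Eb1 both had the pair.

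The 9 genes fell into an expressed group, made of the DM and DO chains and the beta chain H2-Ab1, and a group below 1 FPKM in all 4 libraries, made of the alpha chain H2-Aa, H2-Eb1, Cd74 and Ciita. Transcripts of each accessory DM and DO chain thus stood above those of H2-Aa and Cd74 in every library. In order of mean level per length the genes ran H2-DMb1, H2-Ab1, H2-Oa, H2-DMa, H2-Ob, Cd74, Ciita, H2-Aa and H2-Eb1. H2-DMb1, H2-Ab1, H2-Oa, H2-DMa and H2-Ob lay at the 73.2, 35.4, 27.2, 21.6 and 13.3 percentile of mean FPKM among measured genes. The ranges over the 4 libraries overlapped among H2-Ab1, H2-Oa and H2-DMa, between H2-Ob and both H2-Oa and H2-DMa, and between Ciita and H2-Aa. Among H2-Ab1, H2-Oa and H2-DMa the order changed between libraries and is not set. Within each library H2-Ob lay below H2-Oa and H2-DMa. Ciita lay above H2-Aa in each library, but neither was measured, so their order is not set. H2-DMb1 lay above every other member in each library.

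**Figure D1:**
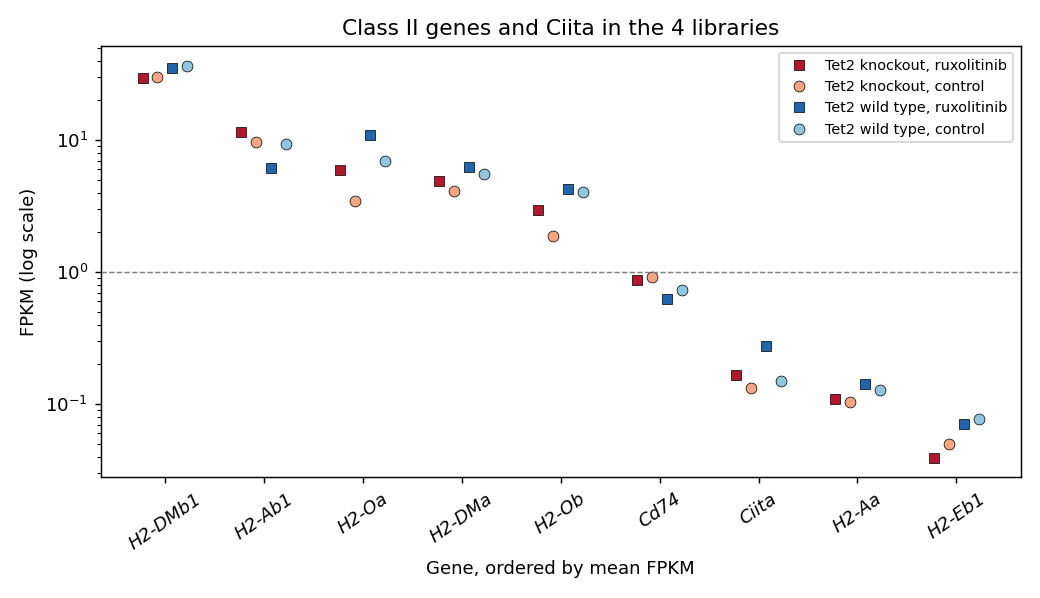
FPKM (log scale) of the 9 genes in the 4 libraries, with 1 point per library, genes ordered by mean level and a dashed line at 1 FPKM. H2-DMb1 lies highest, between 29.5 and 36.8 FPKM, and the points of Cd74, Ciita, H2-Aa and H2-Eb1 all lie under the line.

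Among the antigen-presenting chains, H2-Ab1 (chromosome 17, 34263227 to 34269418), which encodes the beta chain of the A molecule, was at 11.5 and 9.74 FPKM in the knockout ruxolitinib and control libraries, against 6.12 and 9.42 FPKM in the wild-type ruxolitinib and control libraries. The wild-type ruxolitinib library was the low one, and the other libraries lay close together. Its alpha chain partner H2-Aa (chromosome 17, 34282744 to 34287823) was at 0.109 and 0.104 FPKM in the knockout ruxolitinib and control libraries, against 0.143 and 0.128 FPKM in the matching wild-type libraries. These levels rest on about 5 or 6 fragments a library, with an exact Poisson 95% interval of 0.0318 to 0.229 FPKM in the knockout control library that covers counting error only. H2-Ab1 lay above H2-Aa in each library, and no ratio is drawn since H2-Aa was not measured.

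H2-Eb1 (chromosome 17, 34305867 to 34316674), the beta chain of the E molecule, lay between 0.0394 and 0.0765 FPKM. Of the other class II chains, H2-Eb2 did not exceed 0.00697 FPKM, and the E alpha pseudogene H2-Ea-ps was listed at 0 in all 4 libraries. Cd74 (chromosome 18, 60803849 to 60812652) was at 0.875 and 0.925 FPKM in the knockout ruxolitinib and control libraries, against 0.629 and 0.737 FPKM in the matching wild-type libraries. Both knockout values were above both wild-type values, but the counting intervals overlapped, from 0.714 to 1.19 FPKM in the knockout control library and from 0.519 to 0.997 FPKM in the wild-type control library. Cd74 averaged 0.791 FPKM, under the limit of 1 FPKM, so it is stated as not measured and no ratio is drawn from it.

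Ciita (chromosome 16, 10480014 to 10531064) was at 0.165 and 0.132 FPKM in the knockout ruxolitinib and control libraries, against 0.276 and 0.149 FPKM in the matching wild-type libraries. The wild-type ruxolitinib library was highest, with about 76 fragments against 38 to 50 in the other libraries, and all values were far under 1 FPKM. Dexi, which lies on the opposite strand and overlaps Ciita, was at 9.88 to 12.4 FPKM, and the labels do not say whether the counting used strand. The locus that the authors list for Ciita ends at 10527640, before the RefSeq end. Whether that locus overlaps Dexi was not checked. Where it does, reads of Dexi and of Ciita could not be told apart without strand.

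Of the DM pair, H2-DMb1 (chromosome 17, 34153191 to 34160229) was at 29.5 and 30.1 FPKM in the knockout ruxolitinib and control libraries, against 35.3 and 36.8 FPKM in the matching wild-type libraries. Both knockout libraries were lower, and the drug libraries lay beside their controls. H2-DMb2, a copy with 94.4% identical bases over 1255 aligned bases of the coding transcripts, did not exceed 0.196 FPKM, but how reads shared by the copies were divided is not stated. H2-DMa (chromosome 17, 34119693 to 34139101) was at 4.90 and 4.14 FPKM in the knockout ruxolitinib and control libraries, against 6.31 and 5.49 FPKM in the matching wild-type libraries. The knockout libraries were lower here too, and the ruxolitinib library was the higher of each genotype's pair. The RefSeq span of H2-DMa overlaps that of Brd2 on the other strand, which was at 87.7 to 103.3 FPKM. The locus that the authors list for H2-DMa starts at 34122832, past the RefSeq end of Brd2 at 34122814. The FPKM of H2-DMb1 was 5.59 to 7.26 times that of H2-DMa, although the protein is a pair of 1 chain each.

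Of the DO pair, H2-Oa (chromosome 17, 34092379 to 34095234) was at 5.93 and 3.43 FPKM in the knockout ruxolitinib and control libraries, against 10.9 and 6.93 FPKM in the matching wild-type libraries. It was lower in the knockout with and without drug, and higher with drug in each genotype, so the knockout library with drug lay near the wild-type library without it. The locus that the authors list for H2-Oa runs from 34083843 to 34095309, so it starts well before the RefSeq start. What its FPKM takes in from that added stretch is not stated. The counting intervals of H2-Oa assume its longest coding transcript, of 1088 bases. BC051537, transcribed across H2-Oa from the other strand, did not exceed 0.138 FPKM. H2-Ob (chromosome 17, 34238905 to 34245908) was at 2.97 and 1.88 FPKM in the knockout ruxolitinib and control libraries, against 4.27 and 4.08 FPKM in the matching wild-type libraries. Both knockout libraries were lower, and the knockout control library was lowest. The summed FPKM of the DO chains over that of the DM chains was 0.259 and 0.155 in the knockout ruxolitinib and control libraries, against 0.365 and 0.261 in the matching wild-type libraries.

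**Figure D2:**
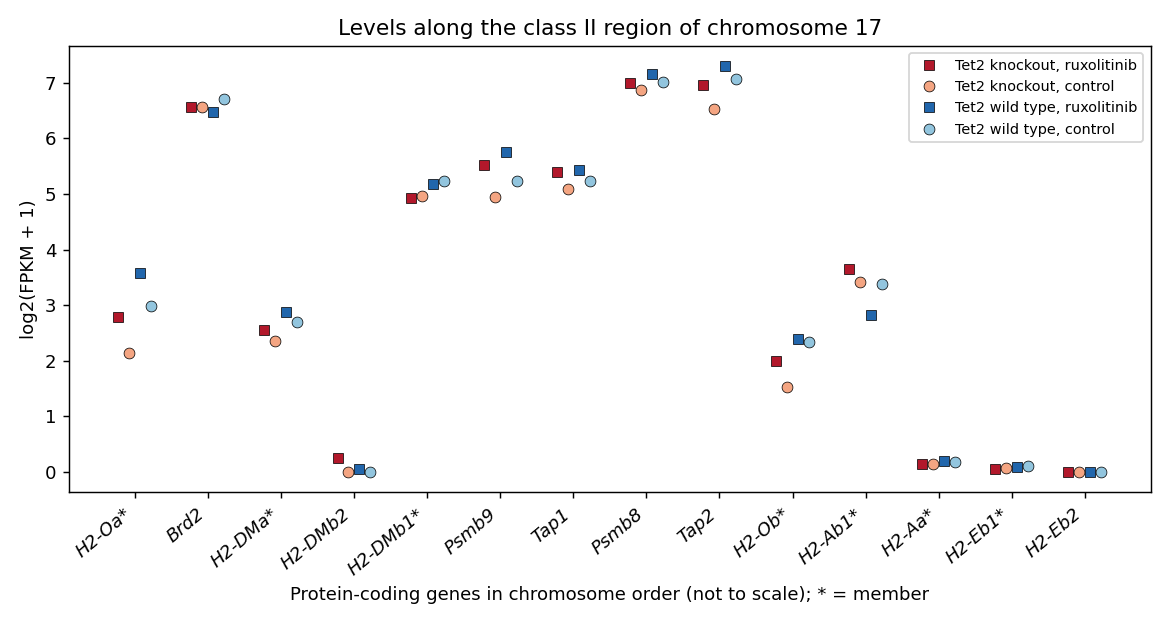
Log2(FPKM + 1) of the 14 protein-coding genes from H2-Oa to H2-Eb2 in chromosome order (not to scale), with 1 point per library and members starred. Psmb9, Tap1, Psmb8 and Tap2, between H2-DMb1 and H2-Ob, lie higher than each starred gene except H2-DMb1, and H2-Aa, H2-Eb1 and H2-Eb2 at the right end lie near 0.

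All of these genes but Cd74 and Ciita lie in a stretch of 249 kilobases on chromosome 17 (34092379 to 34341410), which holds 14 protein-coding genes of the table, 10 of them measured. The class I peptide genes inside it were more abundant than most members. Tap2, a subunit of the peptide transporter, was at 122.8 and 90.7 FPKM in the knockout ruxolitinib and control libraries, against 155.9 and 133.1 FPKM in the matching wild-type libraries. Psmb9, an immunoproteasome subunit, was at 44.7 and 29.7 FPKM in the knockout ruxolitinib and control libraries, against 52.7 and 36.5 FPKM in the matching wild-type libraries. Neighbouring genes thus ranged from the not measured H2-Aa and H2-Eb1 to the immunoproteasome subunit Psmb8, whose lowest library was at 115.4 FPKM.

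The loss of Tet2 without drug went with lower levels of the DO chains. On the log2(FPKM + 1) scale, which understates the change of low genes, the knockout control library was below the wild-type control library by a log2 ratio of -0.84 for H2-Oa and -0.82 for H2-Ob. These were the 2 of 5 measured members at least 1.5-fold lower, where 5.06% of all measured genes were, and 0 of 5 were as far higher, where 3.88% were. The DM chains had smaller ratios of -0.34 for H2-DMa and -0.28 for H2-DMb1, and H2-Ab1 had 0.04. The median over the 5 measured members was -0.34, beside 0.00 over all measured genes. Counting error alone gave 95% intervals of -1.07 to -0.61 for H2-Oa and -0.98 to -0.66 for H2-Ob, which hold no spread between animals. The authors' deposited table, without a pseudocount, gave log2 fold changes of -1.02 and -1.12 for these genes with q-values of 0.000746, which compare the libraries and not the genotypes.

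With ruxolitinib in both genotypes, the knockout library was again lower for H2-Oa, with a log2 ratio of -0.78, while H2-Ab1 was higher at 0.82. H2-Oa was the 1 of 5 measured members at least 1.5-fold lower, beside 3.34% of measured genes, and H2-Ab1 the 1 of 5 as far higher, beside 2.97%. H2-Ob at -0.41, H2-DMa at -0.31 and H2-DMb1 at -0.25 were lower by less than 1.5-fold. The median was -0.31, beside 0.00 over all measured genes. The authors' deposited table gave log2 fold changes of 0.92 for H2-Ab1 and -0.88 for H2-Oa with q-values of 0.000746, and -0.52 for H2-Ob with a q-value of 0.0220, again between libraries. These are other libraries than those compared without drug, though they may come from the same mice, which the labels do not say.

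**Figure D3:**
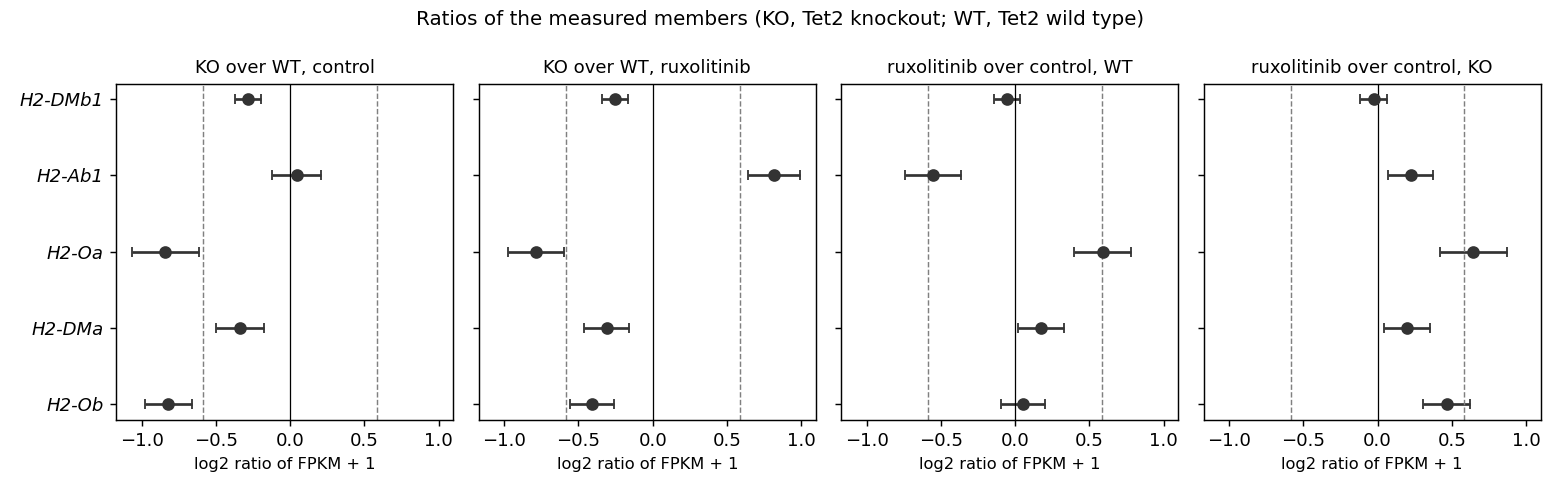
Log2 ratios of FPKM + 1 for the 5 measured members in the 4 comparisons, with bars for the 95% counting error and dashed lines at 1.5-fold. H2-Oa lies at -0.84 and -0.78 in the knockout panels and at 0.59 and 0.65 in the ruxolitinib panels, and H2-Ab1 at 0.04, 0.82, -0.55 and 0.22 from left to right.

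In wild-type cells, the ruxolitinib library was higher than its control for H2-Oa, with a log2 ratio of 0.59, and lower for H2-Ab1, at -0.55. H2-Oa was the 1 of 5 measured members at least 1.5-fold higher, beside 1.05% of measured genes, and it passed that limit narrowly. None of the 5, or 0, was as far lower, beside 2.64% of measured genes. Without a pseudocount, H2-Ab1 was at least 1.5-fold lower, at a log2 fold change of -0.62 in the authors' deposited table. The same table gave 0.66 for H2-Oa. H2-DMa at 0.17, H2-Ob at 0.05 and H2-DMb1 at -0.06 stayed nearer to 0, and the median was 0.05, beside 0.01 over all measured genes. The wild-type control library also served in the comparison of untreated genotypes, so these ratios are not independent.

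In knockout cells, the ruxolitinib library was higher than its control for both DO chains. The log2 ratio was 0.65 for H2-Oa and 0.46 for H2-Ob, then 0.22 for H2-Ab1, 0.20 for H2-DMa and -0.03 for H2-DMb1. H2-Oa was the 1 of 5 measured members at least 1.5-fold higher, beside 1.67% of measured genes, and 0 of 5 were as far lower, beside 2.20%. The median was 0.22, beside 0.00 over all measured genes. The authors' deposited table gave log2 fold changes of 0.79 for H2-Oa and 0.66 for H2-Ob, with q-values of 0.00359 and 0.00639 between the libraries.

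The drug ratios of the genotypes differed most for H2-Ab1, by 0.77 on the log2 scale (knockout 0.22 minus wild type -0.55). It was the 1 of 5 measured members with a difference of at least 1.5-fold towards the knockout, beside 1.82% of measured genes, and 0 of 5 had one towards the wild type, beside 1.14%. The difference was 0.41 for H2-Ob, 0.06 for H2-Oa, 0.03 for H2-DMb1 and 0.03 for H2-DMa. With 1 library a group this difference could not be tested against a spread of replicates.

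At a 2-fold rule on the log2(FPKM + 1) scale, 0 of the 5 measured members passed in any comparison or in the difference. Without a pseudocount, H2-Oa and H2-Ob passed it in the knockout without drug, at the -1.02 and -1.12 of the authors' deposited table. On the scale with the pseudocount, of all measured genes, 1.19% were then higher and 1.70% lower in the knockout control library, and 1.18% were higher and 1.35% lower in the knockout ruxolitinib library. With drug, 0.516% were higher and 1.29% lower in wild-type cells, and in knockout cells 0.630% were higher and 0.917% lower. The difference of the drug ratios passed 2-fold towards the knockout in 105 of 10471 measured genes and towards the wild type in 0.840%.

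H2-Oa had the widest range of the measured members, 1.43 on the log2(FPKM + 1) scale. Among 7676 protein-coding genes averaging 5 FPKM or more, those nearest to it after centring each gene on its mean over the 4 libraries were Pdcd4, Izumo4, Cela1, Il15 and Hrh4. Their Euclidean distances on the log2 scale were 0.11, 0.15, 0.16, 0.16 and 0.16, where the median gene was at 1.04. Pdcd4, an inhibitor of translation, was at 73.2 and 43.9 FPKM in the knockout ruxolitinib and control libraries, against 113.7 and 80.0 FPKM in the matching wild-type libraries. Il15, a cytokine, was at 5.01 and 2.42 FPKM in the knockout ruxolitinib and control libraries, against 9.05 and 5.05 FPKM in the matching wild-type libraries. Likeness over 4 libraries is a description only.

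The factors on which Ciita docks were all expressed. All 7 genes of the RFX, CREB and NF-Y list were measured. In the 4 comparisons 0 of 7 reached 1.5-fold in either direction. Over all measured genes, 1.05% to 5.06% did so in a given direction and comparison, so few of 7 would. Their median log2 ratio for knockout over wild type was 0.07 in untreated and 0.00 in ruxolitinib libraries, and for the drug it was 0.10 in knockout and 0.12 in wild-type cells. Rfx5, the DNA-binding subunit of the RFX complex, was at 10.9 and 7.68 FPKM in the knockout ruxolitinib and control libraries, against 14.9 and 11.3 FPKM in the matching wild-type libraries. Its 4 libraries stood in the same order as those of H2-Oa, by smaller steps. Nfyb, another subunit of NF-Y, was at 17.7 and 17.5 FPKM in the knockout ruxolitinib and control libraries, against 16.0 and 14.9 FPKM in the matching wild-type libraries. Creb1, which binds a further box of these promoters, lay between 6.33 and 7.27 FPKM. Nfya, the DNA-binding subunit of NF-Y, was at 42.9 and 36.4 FPKM in the knockout ruxolitinib and control libraries, against 40.6 and 34.8 FPKM in the matching wild-type libraries.

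Of 13 genes that feed interferon gamma and other signals to Ciita, 9 were measured. On the log2(FPKM + 1) scale, 0 of 9 differed by 1.5-fold with genotype. Over all measured genes the shares were 5.06% lower and 3.88% higher without drug, and 3.34% lower and 2.97% higher with drug. Jak2 (-0.57 without drug) and Ifngr2 (0.58 with drug) fell just short. On FPKM without a pseudocount, each passed 1.5-fold there. Interferon gamma itself (Ifng) was listed at 0 in all 4 libraries. The lymphoid and dendritic factor Irf8 did not exceed 0.0170 FPKM, and Irf4 did not exceed 0.00439 FPKM. Irf1, an activator of Ciita downstream of interferon gamma, was at 17.8 and 13.7 FPKM in the knockout ruxolitinib and control libraries, against 26.7 and 19.9 FPKM in the matching wild-type libraries. Its libraries too stood in the order of H2-Oa. With drug, 0 of 9 were at least 1.5-fold higher in either genotype, beside 1.67% of measured genes in knockout and 1.05% in wild-type cells. In each genotype 1 of 9 was as far lower, beside 2.20% in knockout and 2.64% in wild-type cells. It was Socs1, a feedback inhibitor of JAK kinases, at 33.5 and 115.8 FPKM in the knockout ruxolitinib and control libraries, against 30.0 and 111.4 FPKM in the matching wild-type libraries. Jak2 was at 24.9 and 24.5 FPKM in the knockout ruxolitinib and control libraries, against 35.1 and 36.8 FPKM in the matching wild-type libraries. Ifngr2, a chain of the interferon gamma receptor, went the other way, at 4.79 and 6.40 FPKM in the knockout ruxolitinib and control libraries, against 2.88 and 4.31 FPKM in the matching wild-type libraries.

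Of 12 symbols for class II peptide processing and turnover, 10 were in the table and 7 measured. Without drug, 0 of 7 were at least 1.5-fold higher in the knockout, beside 3.88% of measured genes. As far lower was 1 of 7, beside 5.06%. It was Ctss, the protease that trims the invariant chain, at 2.43 and 2.17 FPKM in the knockout ruxolitinib and control libraries, against 3.75 and 3.99 FPKM in the matching wild-type libraries. In the other 3 comparisons 0 of 7 passed 1.5-fold on the log2(FPKM + 1) scale. Over all measured genes, 1.05% to 3.34% did so there in a given direction. The lysosomal thiol reductase Ifi30 was at 84.0 and 90.5 FPKM in the knockout ruxolitinib and control libraries, against 62.6 and 65.9 FPKM in the matching wild-type libraries. The protease Ctsd was at 2977 and 2798 FPKM in the knockout ruxolitinib and control libraries, against 3406 and 3611 FPKM in the matching wild-type libraries. The legumain gene Lgmn was at 4.11 and 2.93 FPKM in the knockout ruxolitinib and control libraries, against 2.99 and 2.91 FPKM in the matching wild-type libraries.

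Class I presentation, which serves CD8 T cells and is used by nearly all cells, was expressed as a whole. Of its 18 listed genes, 17 were measured, and 0 of these reached 1.5-fold in any of the 4 comparisons. Over all measured genes, 1.05% to 5.06% did so in a given direction and comparison. In the knockout 14 of 17 were lower and 3 higher, both without and with drug. The median log2 ratio of knockout over wild type was -0.18 without drug and -0.25 with drug, where rescaling to TPM moved the median of all measured genes by 0.15 and 0.13. The exception to the measured genes was Nlrc5, the class I counterpart of Ciita, which did not exceed 0.223 FPKM. H2-T23, a non-classical class I chain whose reads may be shared with related genes, was at 179.8 and 162.9 FPKM in the knockout ruxolitinib and control libraries, against 239.3 and 238.9 FPKM in the matching wild-type libraries. The chaperone Calr was at 680.4 and 996.0 FPKM in the knockout ruxolitinib and control libraries, against 596.0 and 772.4 FPKM in the matching wild-type libraries.

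**Figure D4:**
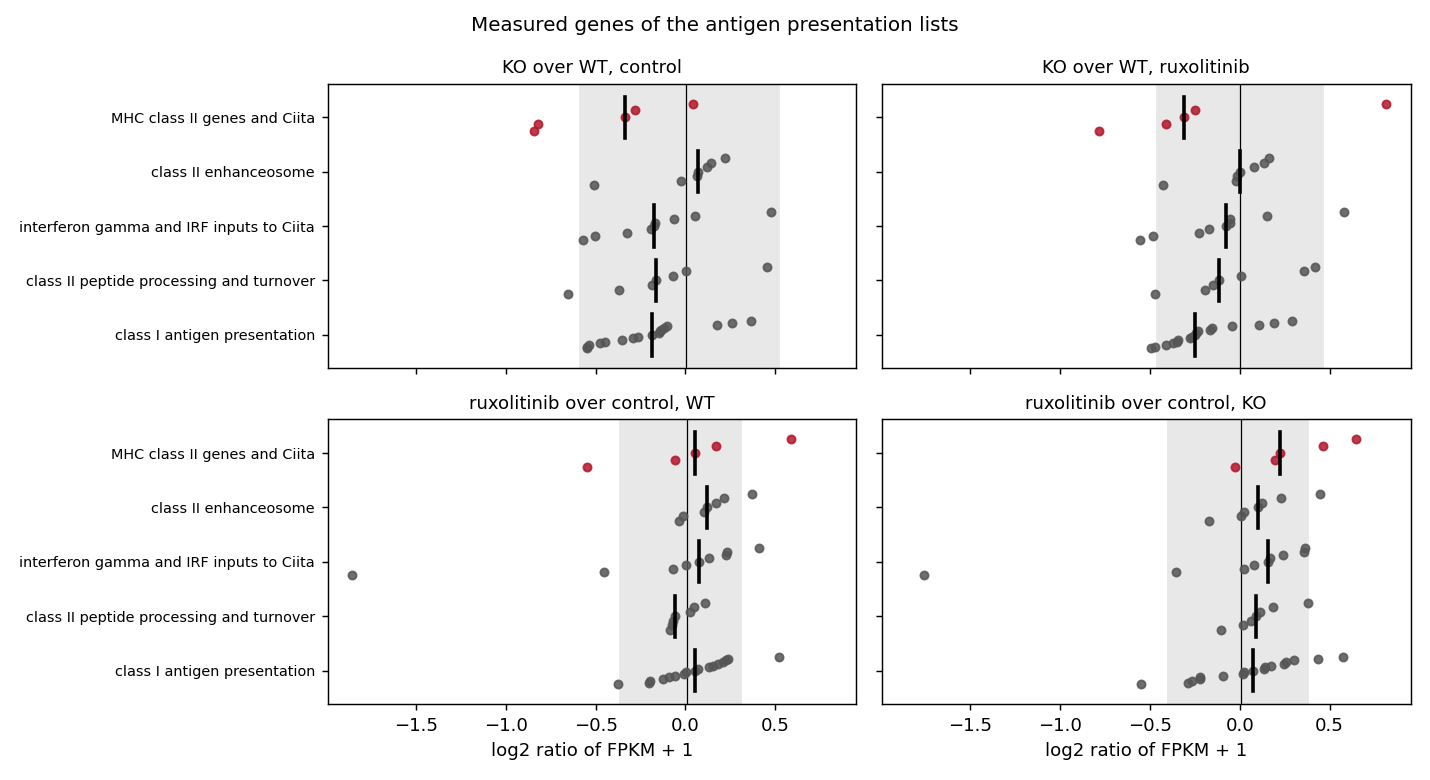
Log2 ratios of FPKM + 1 for each measured gene of 5 lists, with bars at list medians, grey bands from the 5th to the 95th percentile of all measured genes and a thin line at their median. The red class II points run from -0.84 to 0.04 in the untreated and from -0.78 to 0.82 in the ruxolitinib knockout panel, and the lone point far to the left in the drug panels is Socs1.

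Costimulation genes were mostly low. Of 8 genes, 3 were measured, and the costimulators Cd80, Cd86 and Cd40 did not exceed 0.0131, 0.0469 and 0 FPKM. Icosl, a ligand of T cells, was at 3.01 and 7.38 FPKM in the knockout ruxolitinib and control libraries, against 2.78 and 7.20 FPKM in the matching wild-type libraries. Icosl was the 1 of 3 at least 1.5-fold lower with drug in each genotype. Of all measured genes, 2.20% were as far lower in knockout and 2.64% in wild-type cells. Pdcd1lg2, a ligand of the inhibitory receptor PD-1, was at 3.77 and 3.09 FPKM in the knockout ruxolitinib and control libraries, against 1.94 and 2.34 FPKM in the matching wild-type libraries. It was the 1 of 3 at least 1.5-fold higher in the knockout with drug, beside 2.97% of measured genes, as H2-Ab1 was among the members. Cd274, also a ligand of PD-1, was at 19.3 and 14.1 FPKM in the knockout ruxolitinib and control libraries, against 16.8 and 13.0 FPKM in the matching wild-type libraries.

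Markers of B cells and dendritic cells were mostly near 0, while some of monocytes and macrophages were measured. Of the 10 B cell markers, 9 were in the table and 0 were measured, their sum was 0.105 and 0.0602 FPKM in the knockout ruxolitinib and control libraries, against 0.0709 and 0.166 FPKM in the matching wild-type libraries, and Ms4a1, Pax5, Ebf1, Cd22 and Blk were listed at 0 in all 4. Of 12 dendritic cell markers, 2 were measured, Flt3 and Siglech were listed at 0 in all 4, and the sum was 117.6 and 127.8 FPKM in the knockout ruxolitinib and control libraries, against 123.7 and 140.0 FPKM in the matching wild-type libraries. Nearly all of that sum was Bst2, which many cells express. The integrin Itgax was at 3.58 and 0.723 FPKM in the knockout ruxolitinib and control libraries, against 2.12 and 0.510 FPKM in the matching wild-type libraries, so it was higher with drug in both genotypes, as H2-Oa was. Its part in the result was not tested.

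Of 12 monocyte and macrophage markers, 5 were measured, with a sum of 43.0 and 35.5 FPKM in the knockout ruxolitinib and control libraries, against 57.3 and 54.8 FPKM in the matching wild-type libraries. At least 1.5-fold lower in the knockout were 2 of 5, and 1 was as far higher, both without and with drug. Of all measured genes, 5.06% were as far lower and 3.88% higher without drug, and 3.34% lower and 2.97% higher with drug. Cd68, an endosomal protein of macrophages, named here for its share of the sum, was at 21.0 and 20.8 FPKM in the knockout ruxolitinib and control libraries, against 34.8 and 37.8 FPKM in the matching wild-type libraries. The defining receptor Csf1r did not exceed 0.197 FPKM. Cx3cr1, a chemokine receptor, was at 6.02 and 2.55 FPKM in the knockout ruxolitinib and control libraries, against 14.0 and 7.82 FPKM in the matching wild-type libraries, so its libraries stood in the same order as those of H2-Oa. Ccr2, another chemokine receptor, went the other way with genotype, at 5.21 and 3.22 FPKM in the knockout ruxolitinib and control libraries, against 1.37 and 1.40 FPKM in the matching wild-type libraries. Lyz2, the lysozyme of myeloid cells, was at 6.61 and 2.36 FPKM in the knockout ruxolitinib and control libraries, against 4.15 and 2.41 FPKM in the matching wild-type libraries. Adgre1, which encodes the macrophage marker F4/80, was at 2.70 and 5.34 FPKM in the knockout ruxolitinib and control libraries, against 1.72 and 4.23 FPKM in the matching wild-type libraries.

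The mast cell markers summed to 23130 and 19371 FPKM in the knockout ruxolitinib and control libraries, against 31163 and 27579 FPKM in the matching wild-type libraries. This sum stood in the same order of libraries as H2-Oa, lower in the knockout and higher with drug. Most of it was the chymase Cma1, at 10118 and 8289 FPKM in the knockout ruxolitinib and control libraries, against 15834 and 13677 FPKM in the matching wild-type libraries, and the IgE receptor chain Fcer1a. Without drug, 10 of 11 measured markers were lower in the knockout and 1 was higher, with a median log2 ratio of -0.23. With drug, 6 were lower and 5 higher, with a median of -0.14. Rescaling to TPM moved the median of all measured genes by 0.15 and 0.13 in these comparisons. At least 1.5-fold, 3 were lower and 1 higher without drug, beside 5.06% and 3.88% of measured genes. With drug, 2 were as far lower and 1 higher, beside 3.34% and 2.97%. For ruxolitinib over control, 7 of 11 were higher and 4 lower in each genotype. The tryptase gene Tpsab1 was at 42.9 and 52.0 FPKM in the knockout ruxolitinib and control libraries, against 10.03 and 23.3 FPKM in the matching wild-type libraries. Hdc, the enzyme of histamine synthesis, was at 4.52 and 5.85 FPKM in the knockout ruxolitinib and control libraries, against 3.68 and 12.2 FPKM in the matching wild-type libraries. Among eosinophil and basophil markers, 3 of 6 were measured, and the basophil protease Mcpt8 was at 253.8 and 276.6 FPKM in the knockout ruxolitinib and control libraries, against 95.6 and 94.4 FPKM in the matching wild-type libraries. Prss34, also a basophil protease, was at 12.8 and 11.3 FPKM in the knockout ruxolitinib and control libraries, against 0.548 and 0.266 FPKM in the matching wild-type libraries. Cd200r3, a receptor of mast cells and basophils, was at 281.4 and 274.4 FPKM in the knockout ruxolitinib and control libraries, against 266.8 and 317.8 FPKM in the matching wild-type libraries. The summed level of this list was 549.5 and 563.4 FPKM in the knockout ruxolitinib and control libraries, against 363.0 and 412.6 FPKM in the matching wild-type libraries. Of the remaining lists, 3 of 9 stem and progenitor, 2 of 6 erythroid and 1 of 7 T and NK cell markers were measured, and 0 of 5 neutrophil markers. The stem and progenitor sum was 1248 and 933 FPKM in the knockout ruxolitinib and control libraries, against 1502 and 1280 FPKM in the matching wild-type libraries. Ly6a and Cd34 made up most of it and went opposite ways with genotype. Ly6a was at 749.5 and 583.3 FPKM in the knockout ruxolitinib and control libraries, against 1033 and 937.8 FPKM in the matching wild-type libraries. Cd34 was at 464.6 and 317.2 FPKM in the same knockout libraries, against 430.5 and 306.8 FPKM in the wild-type ones. Marker levels thus differed with genotype in both directions beside the lower DO chains, and their part in the result was not tested. In such bulk libraries, fewer cells of a type and less RNA per cell cannot be told apart.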

How the data were processed

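RNA depleted of ribosomal RNA went into Illumina libraries, per the labels' protocols, and was processed with STAR and Cuffdiff on mm10, per the submitters' processing notes. No source used here gives versions, annotation, strand setting or scaling between libraries. Deposited by the authors were FPKM values per gene symbol. A second deposited table gives the authors' log2 fold changes between library pairs and q-values. Its p-values and its test statistic, a score, were not used, though deposited by the authors. Its 2 columns of FPKM per library pair were left out.

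Libraries were grouped by title. Ratios were taken on log2(FPKM + 1) and called at 1.5-fold. A gene averaging 1 FPKM or more counted as measured. Members and gene lists were chosen with earlier results of these data known. All members are named, as are up to 4 measured genes of a list with the largest ratio (not every such gene is described), and the 5 genes nearest to the widest-ranging member. The same search for Cd74 was left out because Cd74 was not measured. Depth was estimated from the steps between low values of genes with 1 transcript over 1500 bases, less 200 bases, and 78.3% to 86.9% of the low values set aside lay within 0.15 of a whole multiple. Fragments of a member were estimated from its longest coding transcript, and their intervals cover counting error only. The ratio and its 1.5-fold call were tested for the knockout without drug, on simulated counts with planted changes and counting error only. The other steps were not tested in this way. Tools were biopython 1.88, scipy 1.17.1, matplotlib 3.10.9, pandas 2.3.3, numpy 2.4.6 and Python 3.11.15. Gene coordinates are from RefSeq on GRCm38.p6.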

Additional observations from a re-analysis of the deposited data

Results flagged for a closer look

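H2-Ab1 stood out because ruxolitinib went with a higher level in knockout cells and a lower level in wild-type cells. The log2 ratio was 0.22 in knockout cells and -0.55 in wild-type cells, a difference of 0.77. Each ratio alone was below 1.5-fold on the log2(FPKM + 1) scale, and the one in knockout cells was the smaller. The difference was not tested, since each group was 1 library. Its size rests on the wild-type ruxolitinib library, at 6.12 FPKM, where the other 3 libraries lay between 9.42 and 11.5 FPKM.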

How the results depend on the processing

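No paired analysis was possible because each group was 1 library. Of 195 ratios of single members under the alternatives, 181 moved by less than their counting error and 14 by more. Of the called ratios, 0 changed direction. The alternatives that changed only the filter on low values reuse the same ratios, so those ratios could not move and count among the 181. For the members' counts and medians the figures were 108 and 22 of 130. With a pseudocount of 5, or a 2-fold rule, the counts of members lower in the knockout without drug, lower or higher in the knockout with drug, higher with drug in either genotype and higher in the difference were all 0. With a pseudocount of 0.1 or the authors' log2 fold changes, 1 member was lower with drug in wild type (H2-Ab1) and 2 were higher with drug in knockout (H2-Oa and H2-Ob), and by the authors' values 2 were higher in the difference. A filter at 5 FPKM, which drops H2-Ob, left 1 lower in the knockout without drug. Centring left 0 higher with drug in wild type. Without a filter, which adds the 4 low genes, the medians were -0.037 and -0.13 for the knockout without and with drug and 0.042 for the drug in knockout cells. Rescaling to TPM shifted the median of all genes by 0.15 and 0.13 in the knockout comparisons, and H2-DMb1 was then at -0.14 and -0.12. The cause of the other changes was not tested. Depth limits H2-Aa and H2-Eb1, at about 3 to 6 fragments a library.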
